A study of Mus musculus with 11 samples.

Results

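The pre-TCR and its first signalling steps were described over 10 genes. They were chosen by the function of their products, with earlier results of these data known. They were Ptcra, the 4 genes of the CD3 chains (Cd3d, Cd3e, Cd3g and Cd247), the kinase genes Lck, Fyn and Zap70, and the adaptor genes Lat and Lcp2. All 10 were among the 35975 genes with a transcript in the deposited tables, and all 10 were among the 13780 genes that passed the filter on low counts. The data were 11 RNA-seq libraries of mouse thymocytes sorted by flow cytometry at DN2 or DN3, which are successive stages of CD4-CD8- (double-negative, DN) thymocytes. The groups were DN2 WT (3 libraries), DN2 Arpp21-/- (2 libraries), DN3 WT (3 libraries) and DN3 Arpp21-/- (3 libraries). No group was treated, and the sex and age of the mice behind each library were not given. Arpp21-/- mice carry a germline deletion in Arpp21, the gene of an RNA-binding protein of thymocytes, made by Cas9 with guides in introns 4 and 5, so that every cell lacks the deleted part. The labels give the strain of both genotypes as C57BL/6J, whereas the study's methods describe edited C57BL/6N embryos, and how many founders the line came from was not given. The study reports that the full-length Arpp21 protein was lost in these mice, while the protein of a short isoform was increased in their thymocytes. The comparisons asked which of the 10 genes change from DN2 to DN3, and whether the Arpp21-/- genotype changes them.

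The pre-TCR is the receptor that an immature thymocyte assembles once its TCR beta locus has been rearranged. The invariant pTalpha chain, encoded by Ptcra, pairs with the new beta chain and takes the place of the TCR alpha chain, and the pair reaches the surface with the CD3 chains gamma, delta and epsilon and a dimer of CD3 zeta (Cd247). These chains carry the ITAM motifs that the Src-family kinases Lck and Fyn phosphorylate. The doubly phosphorylated motifs recruit the kinase Zap70, which phosphorylates the adaptors Lat and SLP-76 (Lcp2), the scaffold for calcium and Ras signals. In the thymus this pathway drives beta selection, the passage of DN3 thymocytes with a productive beta chain to proliferation and to the CD4+CD8+ stage.

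E proteins, the basic helix-loop-helix factors E2A and HEB, are known regulators of Ptcra and bind E-box motifs. The promoter windows of the 5 genes that rose at DN3 in both genotypes, described below, and those of both Lck starts, are therefore shown with their E-box letters. The sequences are those of RefSeq on GRCm38.p6, from 250 bases before to 50 bases after the start, written 5′ to 3′ on the strand of the gene, and a window was found for all 10 genes. Capitals mark CAGCTG or CACCTG, searched on both strands, so that CACCTG on the other strand appears as CAGGTG, and no marked match overlapped another. The windows were chr17:46763663-46763962 (minus strand) for Ptcra, chr9:44980382-44980681 (minus) for Cd3g, chr9:44981536-44981835 (plus) for Cd3d, chr9:45009562-45009861 (minus) for Cd3e, chr1:36761548-36761847 (plus) for the most upstream start of Zap70, chr4:129573592-129573891 (minus) for the distal start of Lck and chr4:129558323-129558622 (minus) for its proximal start.

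Ptcra: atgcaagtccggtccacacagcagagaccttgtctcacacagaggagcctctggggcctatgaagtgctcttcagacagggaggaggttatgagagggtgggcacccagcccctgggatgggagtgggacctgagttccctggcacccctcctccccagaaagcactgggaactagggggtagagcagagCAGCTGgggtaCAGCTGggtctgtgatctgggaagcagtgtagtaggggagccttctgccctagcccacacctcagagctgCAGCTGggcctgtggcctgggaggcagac
Cd3g: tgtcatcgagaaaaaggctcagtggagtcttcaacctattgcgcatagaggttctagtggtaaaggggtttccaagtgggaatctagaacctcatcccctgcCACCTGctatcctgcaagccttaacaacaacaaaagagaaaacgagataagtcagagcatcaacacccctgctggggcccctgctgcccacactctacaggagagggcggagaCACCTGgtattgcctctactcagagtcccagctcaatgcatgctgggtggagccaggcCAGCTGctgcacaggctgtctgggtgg
Cd3d: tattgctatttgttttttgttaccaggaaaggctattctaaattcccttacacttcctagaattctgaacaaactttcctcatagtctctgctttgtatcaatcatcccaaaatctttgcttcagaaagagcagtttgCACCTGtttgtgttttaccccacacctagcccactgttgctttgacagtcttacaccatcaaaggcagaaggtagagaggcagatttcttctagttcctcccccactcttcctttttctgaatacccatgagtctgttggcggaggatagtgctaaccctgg
Cd3e: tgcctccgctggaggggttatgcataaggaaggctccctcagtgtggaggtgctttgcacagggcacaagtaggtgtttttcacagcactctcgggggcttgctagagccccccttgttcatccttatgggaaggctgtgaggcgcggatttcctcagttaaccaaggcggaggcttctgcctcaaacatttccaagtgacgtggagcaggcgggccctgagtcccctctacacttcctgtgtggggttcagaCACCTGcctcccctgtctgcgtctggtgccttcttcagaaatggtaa
Zap70: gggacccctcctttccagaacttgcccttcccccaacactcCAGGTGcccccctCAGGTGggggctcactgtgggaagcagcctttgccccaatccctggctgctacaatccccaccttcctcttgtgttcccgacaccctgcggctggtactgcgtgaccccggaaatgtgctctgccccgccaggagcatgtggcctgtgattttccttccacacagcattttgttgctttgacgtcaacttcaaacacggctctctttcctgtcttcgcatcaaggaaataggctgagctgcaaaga
Lck distal: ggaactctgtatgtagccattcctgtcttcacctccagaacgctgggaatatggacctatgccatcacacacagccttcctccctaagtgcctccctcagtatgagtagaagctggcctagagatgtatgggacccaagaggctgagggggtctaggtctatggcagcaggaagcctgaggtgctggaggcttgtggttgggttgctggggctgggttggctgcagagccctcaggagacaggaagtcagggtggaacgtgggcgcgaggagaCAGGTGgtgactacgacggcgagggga
Lck proximal: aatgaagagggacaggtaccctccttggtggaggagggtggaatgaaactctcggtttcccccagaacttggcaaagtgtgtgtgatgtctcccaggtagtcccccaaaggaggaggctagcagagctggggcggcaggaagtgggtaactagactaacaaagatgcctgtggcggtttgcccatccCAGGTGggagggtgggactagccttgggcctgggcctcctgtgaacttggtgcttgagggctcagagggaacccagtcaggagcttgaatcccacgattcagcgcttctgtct

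The Ptcra window held 3 matches, all CAGCTG, which began 60 and 49 bases before and 21 bases after the start. The Cd3g window also held 3, which began 148 and 35 bases before and 23 bases after the start, and the Zap70 window held 2. Cd3d, Cd3e and each Lck window held 1. Over the 13 windows of the 10 genes (Lck and Zap70 have several starts), 10 held at least 1 match, 3 held at least 2 and 2 held at least 3. Of all 32851 RefSeq promoter windows of this length, 32.9% held at least 1, 7.37% at least 2 and 1.39% at least 3, and 16.3% held CAGCTG. The Fyn and Lat windows held none, whereas those of Cd247 and Lcp2, also not called between the stages below, held 1 each. Of the Zap70 windows not shown, that from chr1 position 36764265 held 0 and that from 36778734 held 1. The letters AGGAAG, a form of the Ets motif, stood in 9 of the 13 windows against 35.4% of all windows, and TGTGGT, a form of the Runx motif, in 3 of the 13 against 16.8%. These counts describe letters in a window and say nothing of binding, which was not measured.

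All values below rest on estimated counts summed per gene, from 14531762 to 63109504 per library, and CPM are these counts scaled to library size with TMM factors. At this depth 3 counts, the floor of a gene at 0, were worth 0.0802 to 0.242 CPM, and this floor covers counting error only. DN2 Arpp21-/- replicate 2 and DN3 Arpp21-/- replicate 3 stood apart from the other libraries, with TMM factors of 0.599 and 0.861 against 1.03 to 1.11 in the other 9, and values without them are given beside results that rest on them. The common dispersion of the fit was 0.281 with them and 0.105 without them. Without them replicate 1 stood alone for DN2 Arpp21-/-, so that the spread of this group was taken from the others. Of the markers of the stages, Cd44 lay between 55.6 and 109 CPM in the DN2 libraries and between 5.37 and 13.1 CPM in the DN3 libraries. Rag1 lay between 1.36 and 14.5 CPM in the DN2 libraries. At DN3 Rag1 depended on the genotype, with 867 to 973 CPM in WT and 236 to 413 CPM in Arpp21-/-. Kit, a marker of DN2, was at 446 to 512 CPM in DN2 WT but at 66.6 CPM in DN2 Arpp21-/- replicate 2, which lay within the DN3 WT range of 60.1 to 97.3 CPM. The 8 DN2 markers summed to 2434 to 3179 CPM in DN2 WT and 2754 to 3317 CPM in DN3 WT, which overlapped, and the 5 DN3 markers, Ptcra among them, to 1113 to 1801 and 2883 to 3530.1 CPM, which did not. The 6 DP (CD4+CD8+) markers summed to 126 to 151 and 404 to 501 CPM, most of it Themis, and the 4 gamma delta T cell markers found to 541 to 633 and 698 to 754 CPM. Nearly all of the gamma delta sum was Cd24a (340 to 410 CPM in DN2 WT and 414 to 460 CPM in DN3 WT) and Trdc (192 to 231 and 256 to 292 CPM). Of its other markers, Zbtb16 was at 3.41 to 7.36 CPM in DN2 WT and at 0 in DN3 WT, and Sox13 overlapped between the stages. The 5 B cell markers summed to 38.6 to 49.6 CPM in DN2 WT and 61.2 to 66.04 CPM in DN3 WT, nearly all of it Cd79b (38.4 to 48.3 and 61.1 to 65.9 CPM), with Pax5 at 0 in every library. The DP, gamma delta T cell and B cell sums thus did not overlap between the stages in WT and were higher at DN3, and their part in the values of the 10 genes was not tested. Arpp21 itself lay, at DN2, at 125 to 183 CPM in WT and 28.5 to 86.9 CPM in Arpp21-/- libraries, and at DN3 at 312 to 386 and 142 to 335 CPM, and these sums over all its exons do not test the deletion. Nothing in the labels says whether replicates came from separate mice, so the p-values measure the spread between these libraries, which may be technical.

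From DN2 to DN3 in WT, 5 of the 10 genes rose, namely Ptcra, Cd3d, Cd3e, Cd3g and Zap70, and none fell. Of all 13780 genes, 4.08% were called in this comparison and 1.86% were called higher. Each log2 fold change is given with its standard error (SE) and was tested by the quasi-likelihood F-test of edgeR, with p-values adjusted by the method of Benjamini and Hochberg over all genes, and a gene was called where its adjusted p was under 0.05. The median log2 fold change was 1.67 over the 10 genes and 0.01 over all genes. Every DN3 WT library was above every DN2 WT library for 8 of the 10, all but Fyn and Lcp2, whereas 34.8% of all genes had groups that did not overlap in either direction. At an unadjusted p under 0.05 there were 8 of the 10, and 1863 of all genes. In bulk RNA, fewer cells of a type and less RNA per cell cannot be told apart.

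Ptcra (ENSMUSG00000036858.8, chr17:46755663-46763712, minus strand of GRCm38) encodes the pTalpha chain that pairs with TCR beta. Its 3 DN2 WT libraries were at 2.96, 1.00 and 1.53 CPM and its 3 DN3 WT libraries at 436, 393 and 365 CPM. The lowest DN3 library was far above the highest DN2 library, and the DN2 values stood above the floor of 3 counts. Ptcra rose 217-fold, from 1.83 ± 1.01 to 398 ± 35.6 CPM (SD, n = 3 and 3), a log2 fold change of 7.76 (SE 0.688, edgeR adjusted p = 0.000393). Among all genes tested it was number 35 by log2 fold change and number 16 by p. In the Arpp21-/- libraries it went from 2.52 and 11.7 CPM at DN2 to 485, 432 and 605 CPM at DN3, again with no overlap, and rose by 6.15 (SE 0.766, edgeR adjusted p = 0.00203) on the log2 scale. The DN2 value of 11.7 CPM belonged to the library that stood apart, and without that library and DN3 Arpp21-/- replicate 3 the rise in Arpp21-/- was 7.50, beside 7.78 in WT.

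**Figure D1:**
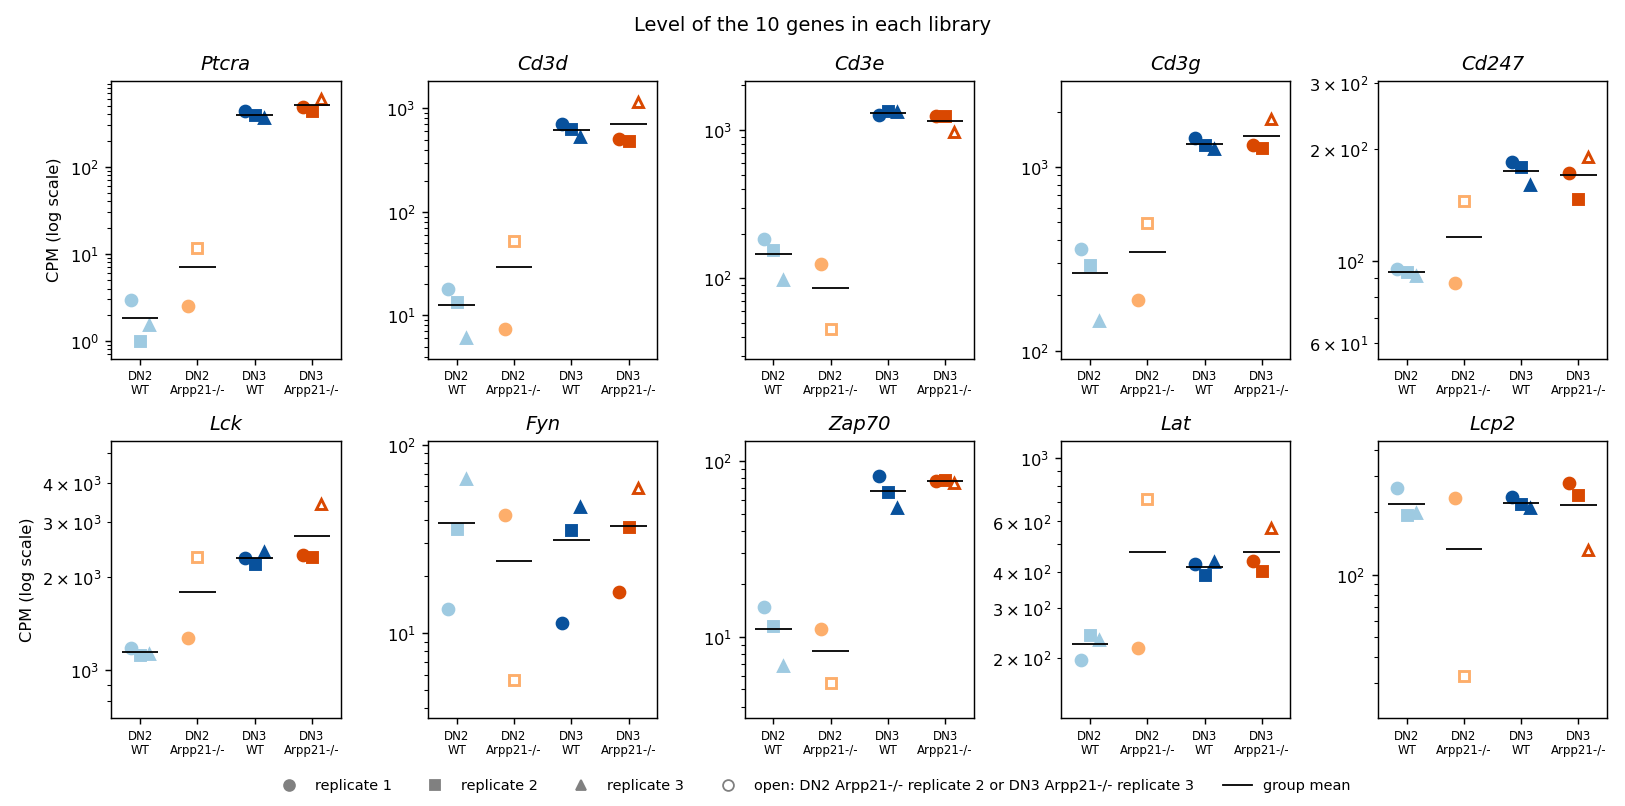
CPM (log scale, vertical axis) of the 10 genes in each of the 11 libraries, 1 panel per gene, with the groups DN2 WT, DN2 Arpp21-/-, DN3 WT and DN3 Arpp21-/- side by side. Points are libraries and bars are group means, and open marks are the libraries that stood apart. Ptcra went from 1.00 to 2.96 CPM in DN2 WT to 365 to 436 CPM in DN3 WT, whereas Lcp2 lay at 195 to 263 and 210.3 to 236 CPM.

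The CD3 chains gamma, delta and epsilon are encoded by a cluster of 40056 bp on chromosome 9, in which Cd3g (ENSMUSG00000002033.14, chr9:44969572-44980431, minus strand) and Cd3d (ENSMUSG00000032094.8, chr9:44981786-44987339, plus strand) start 1355 bp apart and are read away from each other, and Cd3e (ENSMUSG00000032093.7, chr9:44998740-45009627, minus strand) ends 11401 bp from the end of Cd3d. All 3 rose in WT, and by unequal amounts. Cd3d was at 18.0, 13.4 and 6.09 CPM in DN2 WT and at 704, 627 and 535 CPM in DN3 WT. The groups were far apart, and Cd3d rose 49.8-fold (log2 fold change 5.64, SE 0.783, edgeR adjusted p = 0.00341). Cd3e, which pairs with CD3 gamma and with CD3 delta, was at 183, 156 and 97.8 CPM and then at 1264, 1337 and 1313 CPM. No library overlapped, and it rose 8.97-fold (log2 fold change 3.16, SE 0.398, edgeR adjusted p = 0.00204). Cd3g was at 359, 293 and 144 CPM in DN2 WT and at 1436, 1318 and 1261 CPM in DN3 WT. It rose 5.04-fold (log2 fold change 2.33, SE 0.429, edgeR adjusted p = 0.0135). The Cd3g call was the least firm of the 5. It was lost without DN2 WT replicate 2 (0.0633), DN2 WT replicate 3 (0.0517), DN3 WT replicate 1 (0.0525) or DN3 WT replicate 2 (0.0505, all edgeR adjusted p), and with the replicate number within genotype as a block the edgeR adjusted p was 0.0504.

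In Arpp21-/- the same 3 chains rose from DN2 to DN3. Cd3d went from 7.31 and 51.9 to 506, 488 and 1149 CPM, Cd3e from 125 and 45.8 to 1238, 1233 and 964 CPM, and Cd3g from 189 and 498 to 1325, 1266 and 1836 CPM. The groups did not overlap for any of the 3, and the log2 fold changes were 4.59 (SE 0.889, edgeR adjusted p = 0.017) for Cd3d, 3.75 (SE 0.485, edgeR adjusted p = 0.00254) for Cd3e and 2.10 (SE 0.496, edgeR adjusted p = 0.043) for Cd3g. The libraries that stood apart spread these values, with 51.9 CPM of Cd3d in DN2 Arpp21-/- replicate 2 against 7.31 in replicate 1, and 1149 CPM in DN3 Arpp21-/- replicate 3 against 506 and 488. Without both, the rises were 6.08 for Cd3d, 3.30 for Cd3e and 2.77 for Cd3g on the log2 scale. The Cd3g call in Arpp21-/- was lost without any 1 of the DN3 Arpp21-/- libraries (edgeR adjusted p 0.0826 to 0.0967).

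Cd247 (ENSMUSG00000005763.15, chr1:165788681-165877277, plus strand) encodes CD3 zeta, which carries more ITAMs than any other chain. Its DN2 WT libraries were close together at 95, 93.2 and 91.1 CPM and its DN3 WT libraries were at 185, 178 and 160.2 CPM. All DN3 values were above all DN2 values, and the log2 difference was 0.91 (SE 0.243, edgeR adjusted p = 0.0722), which was not called. Without the libraries that stood apart it was 0.92 with an edgeR adjusted p of 0.000428, a call. In Arpp21-/- it was at 87.2 and 145 CPM in DN2 and 172, 147 and 190.3 CPM in DN3, a log2 difference of 0.55 (SE 0.273, edgeR adjusted p = 0.293). Without the libraries that stood apart the difference was 0.86, with DN2 Arpp21-/- replicate 1 alone left for its group. Cd247 overlaps Pou2f1 on the opposite strand over 3007 bp, and with this unstranded library kit reads of that stretch cannot be assigned to a strand. Pou2f1 lay between 3.07 and 37.1 CPM.

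Of the 3 kinases, Zap70 rose with DN3, Lck was higher at DN3 without passing the test, and Fyn overlapped between the stages. Zap70 (ENSMUSG00000026117.10, chr1:36761798-36782818, plus strand), the kinase recruited to phosphorylated ITAMs, was at 14.7, 11.5 and 6.78 CPM in DN2 WT and at 81.7, 66.4 and 54.2 CPM in DN3 WT. The groups were apart, and it rose 6.14-fold (log2 fold change 2.62, SE 0.373, edgeR adjusted p = 0.00381). In Arpp21-/- it went from 11 and 5.48 to 77.5, 77.6 and 75.2 CPM and rose by 3.22 (SE 0.452, edgeR adjusted p = 0.00381) on the log2 scale. Its DN3 Arpp21-/- libraries were closely spaced (SD 1.36 CPM, n = 3), and in CPM the library that stood apart was close to the others. In TPM they were at 56.7, 57.9 and 33.3, so that on this scale that library was the lowest. Without both libraries that stood apart the rise in Arpp21-/- was 2.80, with DN2 Arpp21-/- replicate 1 alone left for its group.

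Lck (ENSMUSG00000000409.14, chr4:129548344-129573641, minus strand), the Src-family kinase bound to CD4 and CD8 in later stages, was at 1181, 1122 and 1132 CPM in DN2 WT and at 2299, 2189 and 2392 CPM in DN3 WT. No libraries overlapped, and the ratio of the means was 2.00, from 1145 ± 31.5 to 2294 ± 102 CPM (SD, n = 3 and 3). The log2 difference was 1.00 (SE 0.279, edgeR adjusted p = 0.0858), with a 95% confidence interval of 0.38 to 1.62. Without the libraries that stood apart the same difference of 1.02 had an SE of 0.0777 and an edgeR adjusted p of 5.44e-05, a call. In Arpp21-/- Lck was at 1269.6 and 2311 CPM in DN2 and 2353, 2319 and 3418 CPM in DN3, where the higher DN2 library was close to the lowest DN3 library, and the log2 difference was 0.59 (SE 0.314, edgeR adjusted p = 0.317). Without both libraries it was 0.87, with DN2 Arpp21-/- replicate 1 alone left for its group.

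The adaptor Lat (ENSMUSG00000030742.7, chr7:126363824-126369570, minus strand), which gathers the PLCgamma1 and Grb2 branches once phosphorylated, was at 197, 239.9 and 232 CPM in DN2 WT and 425, 390.4 and 434 CPM in DN3 WT. All DN3 values lay above all DN2 values, but the log2 difference of 0.90 (SE 0.378, edgeR adjusted p = 0.314) was not called. It was called without the libraries that stood apart (0.92, edgeR adjusted p = 0.000581). In Arpp21-/- Lat was at 216 and 719 CPM in DN2 and 436, 402 and 568 CPM in DN3, so that the DN2 library that stood apart exceeded every DN3 library. The log2 difference was 0.0027 (SE 0.419) with both libraries and 0.95 without them, where DN2 Arpp21-/- replicate 1 stood alone for its group. Lcp2 (ENSMUSG00000002699.13, chr11:34046920-34092295, plus strand), which encodes SLP-76, was at 263, 195 and 199 CPM in DN2 WT and 236, 219 and 210.3 CPM in DN3 WT. These groups overlapped, and the log2 difference was 0.016 (SE 0.559, edgeR adjusted p = 1) with a 95% confidence interval of -1.23 to 1.26, which does not show that the level was the same. In Arpp21-/- Lcp2 was at 234 and 32.6 and then 277, 242 and 132 CPM, and both libraries that stood apart were the lowest of their groups. Its log2 difference in Arpp21-/- was 0.71 (SE 0.638), and without DN2 Arpp21-/- replicate 1 it was 2.75 (edgeR adjusted p = 0.00217), a call that rests on DN2 Arpp21-/- replicate 2 alone for its group. In that fit 6 of the 10 were called in Arpp21-/-, beside 46.1% of all genes. Without both libraries that stood apart it was 0.14 (edgeR adjusted p = 0.759).

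In Arpp21-/- as a whole, 5 of the 10 genes rose from DN2 to DN3 (Ptcra, Cd3d, Cd3e, Cd3g and Zap70), beside 4.32% of all genes called and 1.39% called higher. Groups did not overlap for 7 of the 10, all with DN3 higher, against 25% of all genes in either direction. These were the 5 called genes together with Cd247 and Lck. Fitted without the libraries that stood apart, 8 of the 10 were called in WT, with Lck, Cd247 and Lat added to the 5, beside 15.3% of all genes. In Arpp21-/- that fit left DN2 replicate 1 alone for its group, so that its calls are not counted here. In WT, 8 were also called in the fit to its 2 groups alone, beside 15.6% of all genes, and with limma voom and sample quality weights, beside 16.9%. Fitted to the DN2 and DN3 Arpp21-/- libraries alone, none of the 10 was called, beside 0% of all genes, and with limma voom and sample quality weights 2 were, beside 1.02%.

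**Figure D2:**
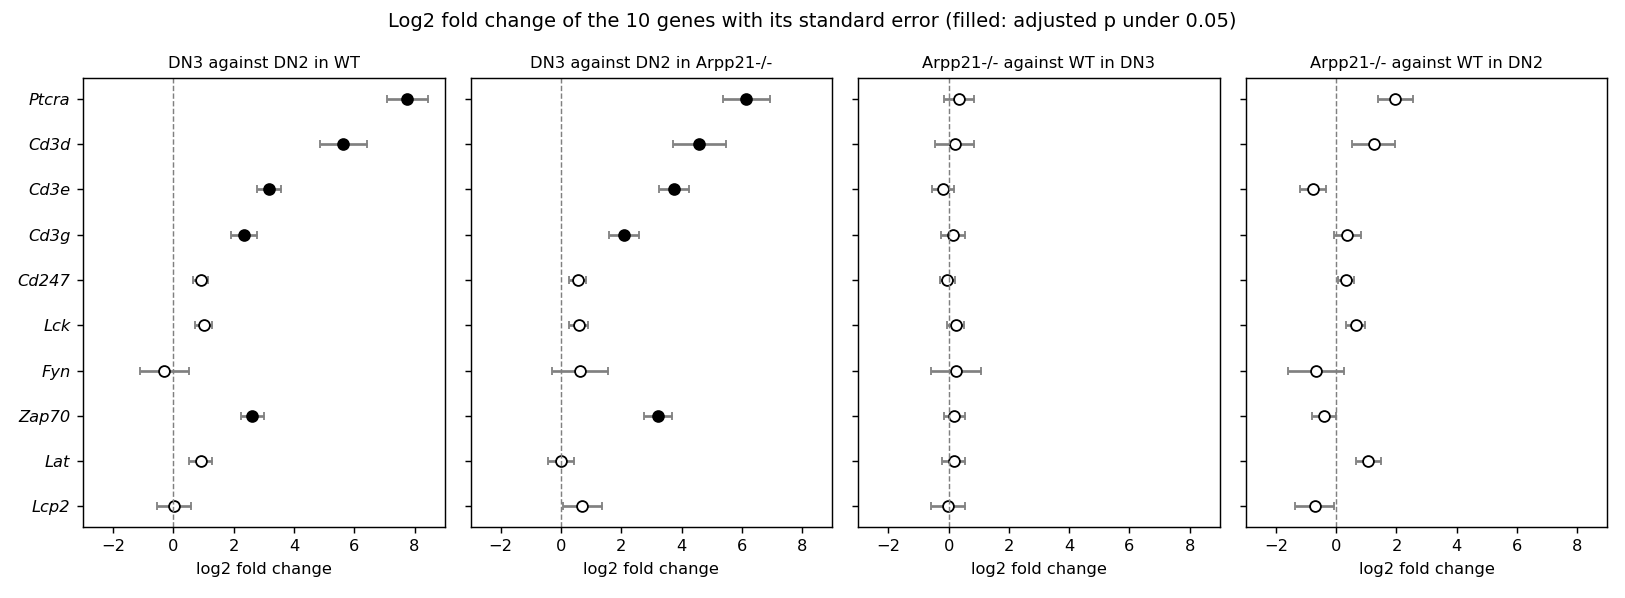
Log2 fold change (horizontal axis) of the 10 genes in the comparisons of stage (DN3 against DN2, in WT and in Arpp21-/-) and of genotype (Arpp21-/- against WT, in DN2 and in DN3), 1 panel per comparison, with bars for the standard error and filled marks for genes called by edgeR (adjusted p under 0.05). In DN3 against DN2 in WT, Ptcra (7.76), Cd3d (5.64), Cd3e (3.16), Zap70 (2.62) and Cd3g (2.33) were called, and none of the 10 was called in either comparison of genotype.

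At DN3 no difference between Arpp21-/- and WT was detected for any of the 10 genes. With edgeR 0 of the 10 were called, beside 0.00726% of all genes, and at an unadjusted p under 0.05 there were 0 of the 10 and 214 of all genes. DESeq2, limma-trend on log2(TPM + 1), limma voom with sample quality weights and the fit without the libraries that stood apart called 0 of the 10 as well, the last 2 beside 0.856% and 0.0343% of all genes. Ptcra values of 436, 393 and 365 CPM in WT overlapped the Arpp21-/- values of 485, 432 and 605 CPM, with a log2 difference of 0.35 (SE 0.509) and a 95% confidence interval of -0.78 to 1.48, or of 0.20 without the libraries that stood apart. Cd3e was the single gene of the 10 whose groups did not overlap, against 10.5% of all genes, with WT values of 1264, 1337 and 1313 CPM and Arpp21-/- values of 1238, 1233 and 964 CPM. Its Arpp21-/- libraries were lower, and the log2 difference was -0.19 (SE 0.366), with a 95% confidence interval of -1.0 to 0.63, and -0.083 without the libraries that stood apart. For the other 8 the log2 differences ran from -0.039 (Cd247) to 0.25 (Fyn). The intervals were narrowest for Cd247 (-0.58 to 0.50) and Lck (-0.38 to 0.85) and widest for Fyn (-1.57 to 2.08).

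Several of these small differences moved without the libraries that stood apart. Cd3d was at 1149 CPM in that library against 506 and 488 in the others, and its log2 difference from WT went from 0.20 to -0.33 without the libraries that stood apart. Lck was at 3418 CPM in it against 2353 and 2319, and its difference went from 0.23 to 0.021. None of these values was called in either fit.

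At DN2, 0 of the 10 genes were called between Arpp21-/- and WT, beside 0% of all genes, with 2 of the 10 and 2020 of all genes at an unadjusted p under 0.05. These 2 were Ptcra and Lat. Ptcra had WT values of 2.96, 1.00 and 1.53 CPM and Arpp21-/- values of 2.52 and 11.7 CPM (log2 fold change 1.96, SE 0.580, edgeR adjusted p = 0.336), and Lat had WT values of 197, 239.9 and 232 CPM and Arpp21-/- values of 216 and 719 CPM (log2 fold change 1.07, SE 0.413, edgeR adjusted p = 0.336). The high value of each came from replicate 2, which stood apart, and replicate 1 lay within the WT range. Without replicate 2 the differences were 0.48 for Ptcra and -0.022 for Lat. Lck was the single gene of the 10 without overlap, with WT values of 1181, 1122 and 1132 CPM and Arpp21-/- values of 1269.6 and 2311 CPM, against 15.8% of all genes, and its log2 difference was 0.64 (SE 0.306), or 0.17 without replicate 2. DESeq2, limma-trend, limma voom with sample quality weights and the fit without the libraries that stood apart also called 0 of the 10.

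The calls at DN2 changed with the library left out. When replicate 1 was left out, so that replicate 2 stood alone for the group and was assumed to vary like the other groups, 7 of the 10 genes were called, beside 46.2% of all genes in that fit. Ptcra (2.66), Cd3d (2.05), Lat (1.68), Lck (1.00) and Cd247 (0.63) were then higher on the log2 scale, and Lcp2 (-2.76) and Cd3e (-1.68) lower. In the same library the summed level of 6 NK cell markers was 1668 CPM against 308 to 344 CPM in the other DN2 libraries, nearly all of it Nkg7 (1652 CPM), while the defining markers Ncr1 and Eomes were at 0. The 7 myeloid markers summed to 357 CPM against 114 to 159 CPM. Of these, Tyrobp was at 203 CPM against 43.2 to 59.8, Lyz2 at 105 against 43.5 to 53.3 and Fcer1g at 47.9 against 20.5 to 37.6 CPM, while Itgam was at 0 and Csf1r at 0.0535 CPM. The 8 DN2 markers summed to 418 CPM against 2434 to 3179 CPM. The part of these shifts in the values of the 10 genes was not tested.

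The deviations of that library were mostly higher for genes with short transcripts and lower for genes with long ones. Relative to replicate 1, replicate 2 was higher by 1.40 (log2) for Cd3g, whose transcripts average 1024 bp, by 1.73 for Lat (1232 bp) and by 1.85 for Ptcra (1283 bp). At the other end it differed by -2.71 for Fyn (2952 bp) and -2.81 for Lcp2 (3296 bp). Cd3e, at 1460 bp, went against this order with -1.43, whereas its neighbour Cd3d (1607 bp) was at 2.67. Across the 10 genes Pearson's r with log2 length was -0.77 and Spearman's rho -0.71, a description across genes of 1 pair of libraries. The deviations of DN3 Arpp21-/- replicate 3 from the rest of its group had the same sign for 9 of the 10 genes but ran from -0.96 (Lcp2) to 1.22 (Fyn), with r = -0.22. The part of transcript length in the comparisons was not tested beyond an offset for average transcript length, under which the called counts of the 10 were 5, 5, 0 and 0 as in the fit without it.

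**Figure D3:**
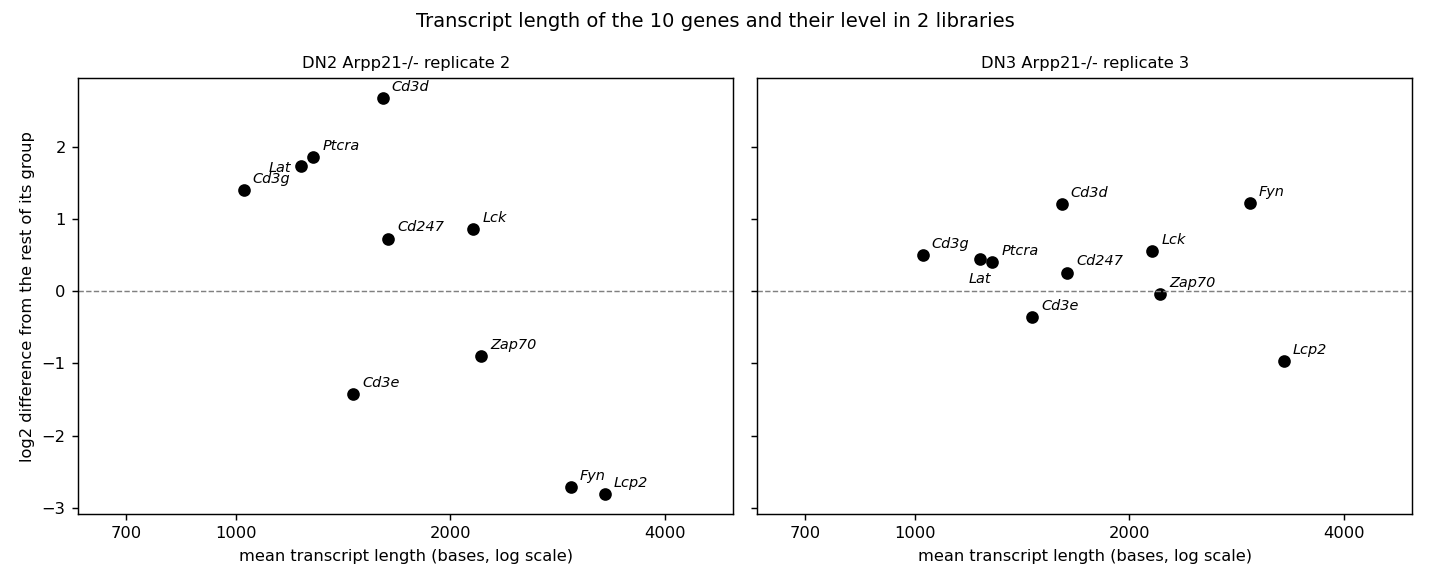
Mean transcript length in bases (log scale, horizontal axis) of the 10 genes against the log2 difference in CPM (vertical axis) of each Arpp21-/- library that stood apart from the rest of its group, 1 panel per library. In DN2 Arpp21-/- replicate 2, Cd3g, Lat and Ptcra lie above 0 and Fyn (-2.71) and Lcp2 (-2.81) below it, with Cd3e (-1.43) off the order.

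The change from DN2 to DN3 did not differ detectably between the genotypes. In the interaction of stage and genotype edgeR called 0 of the 10 genes, beside 0% of all genes, and there were 0 of the 10 and 373 of all genes at an unadjusted p under 0.05. DESeq2, limma-trend and limma voom with sample quality weights called 0 of the 10 too. The largest absolute difference among the 10 was that of Ptcra, whose rise in Arpp21-/- minus its rise in WT was -1.61 (SE 0.771) on the log2 scale, with an unadjusted p of 0.0633 and an edgeR adjusted p of 0.964. Without the libraries that stood apart it was -0.28. Without DN2 Arpp21-/- replicate 1, 4 were called beside 25% of all genes, namely Ptcra (-2.31), Lat (-1.51), Cd3e (1.49) and Lcp2 (2.73). The comparisons share libraries, so that the values of 1 gene in different comparisons are not independent.

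Levels of different genes were compared per length, in TPM (counts divided by effective length and rescaled within each library). In DN2 WT the order of the means was Lck (788 ± 79.0), Cd3g (419 ± 185), Lat (289 ± 11), Cd3e (159 ± 49.9), Lcp2 (112 ± 29.2), Cd247 (85 ± 7.31), Fyn (19.7 ± 13.7), Cd3d (15 ± 9.36), Zap70 (7.97 ± 3.51) and Ptcra (2.23 ± 1.38) TPM (SD, n = 3). The ranges of Cd3g and Lat overlapped, as did those of Cd3e and Lcp2, of Lcp2 and Cd247, of Fyn and Cd3d, and of Cd3d and Zap70. In DN3 WT the order was Cd3g (2268 ± 149), Lck (1733 ± 141), Cd3e (1570.0 ± 71.4), Cd3d (660.3 ± 70.4), Lat (591 ± 53.2), Ptcra (515 ± 42.8), Cd247 (174 ± 9.09), Lcp2 (133 ± 11.4), Zap70 (47.4 ± 9.14) and Fyn (17.8 ± 9.68) TPM (SD, n = 3), where the ranges of Lck and Cd3e, of Cd3d and Lat and of Lat and Ptcra overlapped. Ptcra thus stood last at DN2 and above Cd247, Lcp2, Zap70 and Fyn at DN3, and Fyn, above Cd3d, Zap70 and Ptcra at DN2, was last at DN3. The order of the means in DN3 Arpp21-/- was the same as in DN3 WT with all 3 libraries. Without replicate 3, Lat (605 TPM) and Ptcra (599 TPM) stood above Cd3d (524 TPM), and Lcp2 (166 TPM) above Cd247 (160.3 TPM). In DN2 Arpp21-/- Lck was first in both libraries (901 and 584 TPM). Ptcra was last in replicate 1 (3.11 TPM) but at 5.10 TPM stood above Zap70 (1.29) and Fyn (0.982) in replicate 2, so that the order of the lowest genes was not the same in the 2 libraries.

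The share of each CD3 chain gene in the summed TPM of the 4 was set beside the stages. Cd3d made up 2.71, 2.00 and 1.51% of the summed TPM of the 4 chain genes in DN2 WT and 15.1, 14.3 and 12.9% in DN3 WT. The groups were apart, with means of 2.07% ± 0.603 and 14.1% ± 1.1 (SD, n = 3 and 3). Cd3e went from 22.6, 23.2 and 25.6% to 31.1, 34.1 and 35.7%. Cd3g, the largest part at both stages, went from 64.6, 63.3 and 53.5% to 50, 47.8 and 47.7%, and Cd247 from 10.1, 11.6 and 19.4% to 3.76, 3.80 and 3.58%. For each of the 4 chains no DN2 WT library overlapped a DN3 WT library, and the exact permutation test (two-sided) gave p = 0.1, the smallest that 3 against 3 libraries allow. The 4 shares of a library sum to its whole and are not independent of each other.

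In DN3 Arpp21-/- the share of Cd3d was 12.0, 11.8 and 20.9% and that of Cd3e 33.3, 35.1 and 20.5%. The third library, which stood apart, was outside the range of the other DN3 libraries for both, and the exact permutation p between DN3 genotypes (two-sided, 3 against 3) was 1 for Cd3d, 0.6 for Cd3e, 0.2 for Cd3g and 0.4 for Cd247. In DN2 Arpp21-/- the share of Cd3d was 2.12 and 6.69% and that of Cd3e 26.4 and 4.39%, so that replicate 1 lay close to the WT libraries and replicate 2 did not. These tests of 1 family (4 chains, 3 comparisons) were not adjusted, since none was below 0.1.

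**Figure D4:**
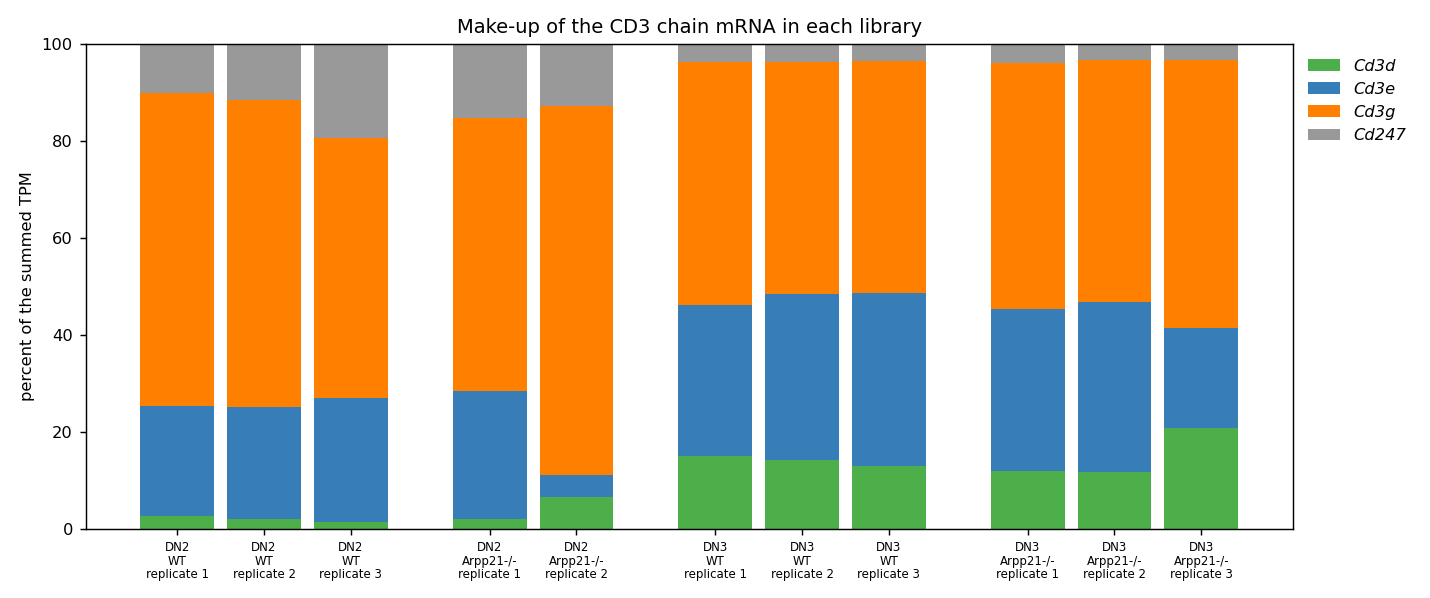
Share (%, vertical axis) of Cd3d, Cd3e, Cd3g and Cd247 in the summed TPM of the 4 CD3 chain genes in each of the 11 libraries (horizontal axis), as stacked bars that start at 0 and end at 100%. Cd3d takes 2.07% on average in DN2 WT and 14.1% in DN3 WT, and Cd247 13.7% and 3.72%.

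Lck is read from a distal and a proximal start 15250 bp apart, whose windows are shown above. The proximal promoter is known as the one active in early thymocytes, and the distal promoter as the one that stays active in mature T cells. Transcripts with an assigned start were the distal Lck-202 (start at chr4 position 129573641) and the proximal Lck-201, Lck-206 and Lck-208 (starts between 129558391 and 129558372, minus strand). The distal transcript took 9.93, 11.4 and 9.81% of their TPM in DN2 WT and 25.9, 24.0 and 22.3% in DN3 WT. All DN3 libraries were above all DN2 libraries, with means of 10.4% ± 0.873 and 24.0% ± 1.81 (SD, n = 3 and 3, exact permutation p = 0.1, two-sided, the smallest possible). In Arpp21-/- the share was 9.49 and 9.47% at DN2 and 20.1, 20.8 and 20.5% at DN3, again without overlap (exact permutation p = 0.2, two-sided, 2 against 3 libraries). In each Arpp21-/- group the library that stood apart was close to the others in this share.

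In TPM the distal transcript went from 79.1 ± 5.45 to 400.3 ± 32.6 in WT (SD, n = 3 and 3), a ratio of 5.06, and the proximal transcripts from 687 ± 74.5 to 1268 ± 120.4, a ratio of 1.85. In Arpp21-/- the ratios were 4.89 and 1.99. Between the genotypes at DN3 every WT library (25.9, 24.0 and 22.3%) had a higher distal share than every Arpp21-/- library (20.1, 20.8 and 20.5%), with means of 24.0% and 20.4% and an exact permutation p of 0.1 (two-sided, 3 against 3, the smallest possible), so that the test could not reach 0.05. By estimated counts in place of TPM the mean shares were 10.1% (WT) and 9.20% (Arpp21-/-) at DN2 and 23.5% (WT) and 19.9% (Arpp21-/-) at DN3. The transcripts share exons downstream, so that the split rests on the reads that reach a first exon.

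**Figure D5:**
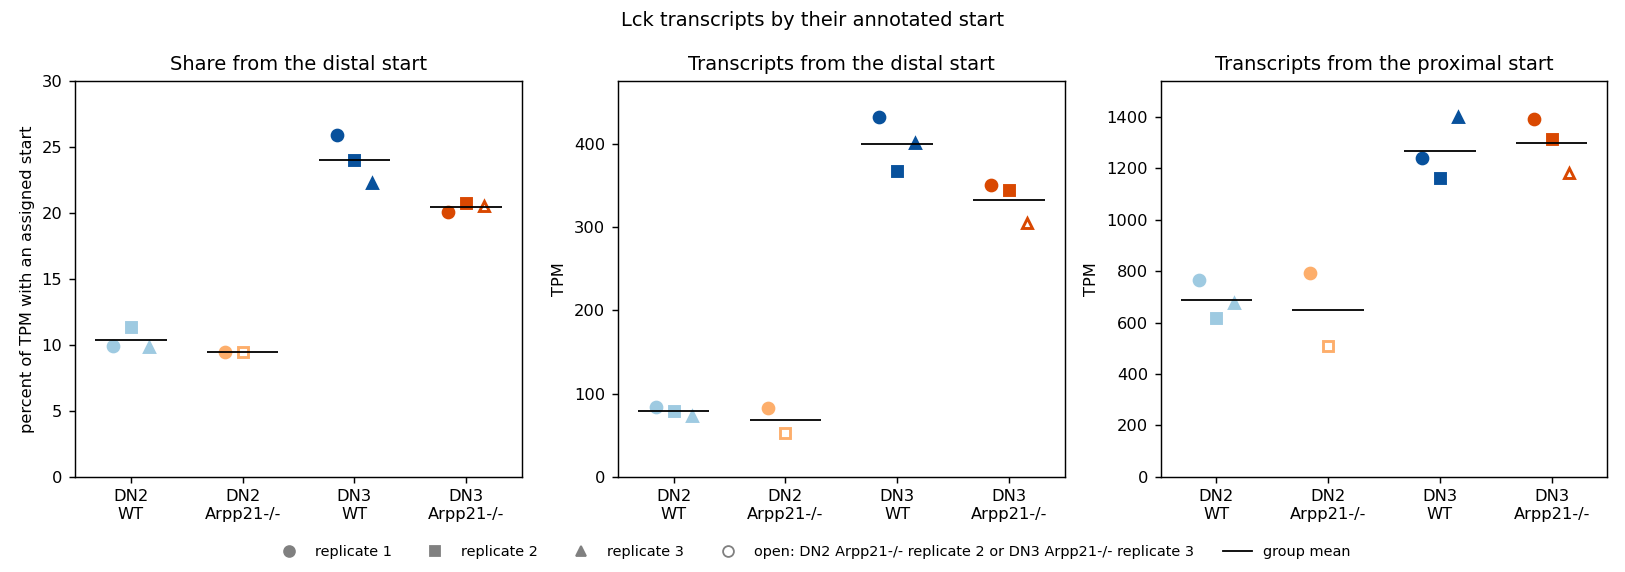
Share (%) of the distal start in the TPM of Lck transcripts with an assigned start (left), TPM of the distal transcript (middle) and TPM of the proximal transcripts (right) by group, with points for libraries and bars for group means, on axes that start at 0. The distal share is 10.4% (WT) and 9.48% (Arpp21-/-) on average at DN2, and 24.0% and 20.4% at DN3.

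Fyn (ENSMUSG00000019843.14, chr10:39368855-39565381, plus strand), the other Src-family kinase of the receptor, had a wide spread within the groups. Its CPM values were 13.3, 35.8 and 65.5 in the WT libraries of DN2 and 11.4, 35.2 and 46.8 in those of DN3, and 16.5, 36.4 and 58.5 in the Arpp21-/- libraries of DN3. The highest library of these 3 groups was 4.92, 4.12 and 3.56 times the lowest, in that order. Same-numbered WT libraries, which deviated together over all genes as well, had 13.3 and 11.4, 35.8 and 35.2, and 65.5 and 46.8 CPM at DN2 and DN3. DN3 was the lower in each of these 3 pairs, and with the replicate number within genotype as a block the log2 difference in WT was -0.25 (SE 0.688, edgeR adjusted p = 0.978). In DN2 Arpp21-/- it was at 42.5 and 5.64 CPM. The log2 difference between the stages was -0.30 (SE 0.821) in WT and 0.62 (SE 0.935) in Arpp21-/-, with 95% confidence intervals of -2.12 to 1.53 and -1.45 to 2.70, and without the libraries that stood apart it was -0.28 and -0.69. Fyn has alternative exons, a shorter of 156 bp (chr10:39529919-39530074) in the T cell form and a longer of 165 bp (chr10:39529437-39529601) in the brain form. Transcripts with the shorter exon took 67.3 to 100% of the Fyn TPM over the 11 libraries and those with the longer exon 0 to 16.05%, and the other transcripts of the gene took the rest.

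The other genes differed in how far 1 transcript led. Ptcra has 1 transcript in the tables. The leading transcript took 95.7 to 98.6% of the TPM of Cd3g over the 11 libraries, 93.0 to 98.4% of that of Cd247, 84.3 to 89.5% of that of Lat and 73.3 to 100% of that of Zap70, but 50.1 to 63.0% of that of Lcp2. For Cd3d, Cd3d-201 took 56.2 to 85.7% of the TPM in the DN2 libraries and 92.0 to 96.4% in the DN3 libraries, so that the groups by stage did not overlap. By estimated counts, which give short transcripts less weight, its share was 92.5 to 98.4% and 99.1 to 99.7%. Cd3e-201 took 84.6 to 93.3% of the Cd3e TPM over all 11 libraries.

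Beside the 10 genes, 64 genes of the same pathway were counted on 6 lists, of which 61 were tested. In WT 6 of the 61 rose from DN2 to DN3 and 1 fell, beside 1.86% of all genes called higher and 2.22% called lower. In Arpp21-/- 5 rose and 1 fell, beside 1.39% and 2.93%. Without the libraries that stood apart 21 rose and 5 fell in WT, beside the 15.3% of all genes called in that fit. None was called between the genotypes at either stage or in the interaction. None of the 4 tested receptor chain genes and none of the 7 other kinase genes was called between the stages. On the list of 13 genes known to respond to pre-TCR signals 4 rose in each genotype, and the list's median log2 fold change in WT was 0.47 against 0.01 over all genes. In WT the value was positive for 9 of the 13 and negative for Nfil3 (-1.46), Top2a (-0.74), Mki67 (-0.36) and Slc3a2 (-0.13), none of them called. The 4 that rose were Egr1, Cd28, Nr4a1 and Id3. Egr1, an immediate early transcription factor, was at 0.610, 0 and 1.19 CPM in DN2 WT and 24.6, 40.7 and 47.0 CPM in DN3 WT (log2 fold change 5.93, SE 1.14, edgeR adjusted p = 0.0163). Cd28, a costimulatory receptor, was at 10.4, 6.73 and 10.5 CPM in DN2 WT and 128, 117 and 121 CPM in DN3 WT (log2 fold change 3.72, SE 0.277, edgeR adjusted p = 0.000133). Nr4a1, an orphan nuclear receptor, was at 1.26, 3.77 and 1.69 CPM in DN2 WT and 15.4, 33.9 and 23.2 CPM in DN3 WT (log2 fold change 3.43, SE 0.542, edgeR adjusted p = 0.00611). Id3, an inhibitor of E proteins, was at 11.3, 11.4 and 13.6 CPM in DN2 WT and 72.6, 74.6 and 78.4 CPM in DN3 WT (log2 fold change 2.64, SE 0.408, edgeR adjusted p = 0.0055). The DN2 and DN3 WT libraries did not overlap for any of the 4. The Egr1 call in WT was lost without DN2 WT replicate 1 (edgeR adjusted p = 0.0761), DN3 WT replicate 2 (0.0596) or DN3 WT replicate 3 (0.0623), as well as under the replicate number within genotype as a block (0.0676), and those of the other 3 in WT were kept in each of these fits. In Arpp21-/- Egr1 was at 0 and 0.214 CPM at DN2 and at 27.2, 28.0 and 8.88 CPM at DN3, and its call was lost without DN3 Arpp21-/- replicate 1 (edgeR adjusted p = 0.0623) or replicate 2 (0.0653). The Nr4a1 call in Arpp21-/- was lost without DN2 Arpp21-/- replicate 2 (edgeR adjusted p = 0.0579), and that of Id3 without any 1 of the DN3 Arpp21-/- libraries (0.0719 to 0.0775). None of the 4 was called in the fit to the DN2 and DN3 Arpp21-/- libraries alone. With the replicate number within genotype as a block the Arpp21-/- calls of Egr1 (0.0877) and Id3 (0.120) were lost. An offset for average transcript length ended that of Nr4a1 (0.0542, all edgeR adjusted p). With limma voom and sample quality weights those of Egr1, Nr4a1 and Id3 were lost (limma voom adjusted p 0.430 to 0.585).

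Of 13 other adaptor genes, 1 rose in each genotype. This was Sh2d2a, which encodes an adaptor that binds Lck, at 60.4, 55.4 and 42.2 CPM in DN2 WT and 164, 164 and 166 CPM in DN3 WT (log2 fold change 1.64, SE 0.382, edgeR adjusted p = 0.0403). Of 14 effector genes 1 fell in each genotype, namely Rasgrp2, an activator of Rap1, at 64.5, 68.1 and 58.6 and 18.0, 18.6 and 21.4 CPM in WT (log2 fold change -1.72, SE 0.322, edgeR adjusted p = 0.0147). Of 10 genes that brake the pathway 1 rose in WT, Spry1, at 2.61, 1.77 and 2.18 and 3.97, 8.52 and 9.64 CPM (log2 fold change 1.75, SE 0.419, edgeR adjusted p = 0.0463), and none was called in Arpp21-/-, a difference that was not called in the interaction. These 3 calls in WT were less firm. That of Sh2d2a was lost without any 1 of the 6 WT libraries (edgeR adjusted p 0.0968 to 0.157), that of Spry1 without any 1 of them but DN3 WT replicate 1 (0.0956 to 0.214) and that of Rasgrp2 without DN2 WT replicate 2 or any 1 of the DN3 WT libraries (0.0612 to 0.0821). With the replicate number within genotype as a block the edgeR adjusted p in WT was 0.0509 for Sh2d2a, 0.23 for Spry1 and 0.0567 for Rasgrp2, so that these calls were lost. With the replicate number as a block over all libraries that of Spry1 was 0.0981, and without the filter on low counts 0.0959 (both edgeR). Limma-trend on log2(TPM + 1) also ended the WT calls of Sh2d2a and Spry1 (limma-trend adjusted p = 0.180 and 0.0856). In Arpp21-/- the Sh2d2a call was lost without DN2 Arpp21-/- replicate 2 (edgeR adjusted p = 0.165) or without DN3 Arpp21-/- replicate 1 (0.122) or replicate 2 (0.116). Both the Sh2d2a and the Rasgrp2 call in Arpp21-/- were lost in the fit to its 2 groups alone (0.366 and 0.177). They were also lost with the replicate number within genotype as a block (0.0506 and 0.0626, all edgeR adjusted p). With limma voom and sample quality weights that of Sh2d2a was lost (limma voom adjusted p = 0.321), as it was with limma-trend (limma-trend adjusted p = 0.110). The median log2 fold changes in WT were 0.31 for receptor chains, -0.046 for other kinases, 0.33 for adaptors, 0.20 for effectors and 0.49 for brakes. In the same comparison the summed NK cell and myeloid markers were lower at DN3, in contrast to the B cell, gamma delta T cell and DP sums given above, and their part in the values of the lists was not tested. Tyrobp was at 43.2, 59.8 and 57.3 CPM in DN2 WT and 0.365, 0.298 and 0.442 CPM in DN3 WT. The 7 myeloid markers summed to 114 to 159 CPM in DN2 WT and 29.9 to 36.8 CPM in DN3 WT. The 6 NK cell markers summed to 308 to 343 CPM in DN2 WT and 97.3 to 131 CPM in DN3 WT. Nearly all of the NK cell sum was Nkg7 (304 to 338 and 96.6 to 131 CPM), with Ncr1 at 0 in every DN2 WT library.

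The genes with a pattern most like that of Ptcra were sought among 8509 genes with a mean of at least 10 CPM over the 11 libraries, by Pearson's r of log2(CPM + 1) over the 11 libraries. The first 5 were Fbln2 (r = 0.994), Hpcal1 (0.990), Hsdl1 (0.987), Cd3d (0.986) and Arl5c (0.986). Cd3g was number 30, Cd247 number 68, Zap70 number 74, Cd3e number 99 and Lck number 112. Lat was number 445, Lcp2 number 2926 and Fyn number 4234. Without the libraries that stood apart, over 9 libraries, the first 5 were Tenm1 (0.997), Fam163b (0.996), Ets1 (0.996), Lck (0.995) and Fbln2 (0.995). The libraries fall into the 2 stages, so that any gene far apart between DN2 and DN3 correlates with Ptcra, and the values are a description.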

How the data were processed

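The 11 RNA-seq libraries of sorted thymocytes were made with the SMART-Seq v4 and Nextera kits, which do not mark strand, and were sequenced as read pairs. The authors deposited 1 table per library, made with kallisto 0.46 (version per the labels) from trimmed reads and the transcripts of Ensembl 101 on GRCm38. The authors deposited expected counts (kallisto's estimated counts) per transcript, which were not normalized. The deposited TPM are those counts per effective length, rescaled within each library. Its effective lengths, another unit that the authors deposited, are transcript lengths in bases less a fragment term. Kallisto shares out reads between transcripts that fit them equally, so that transcript shares are estimates.

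Of 119414 transcripts, 116728 matched GENCODE M21 by identifier, and the others, with 0.933% to 1.07% of the counts, were dropped. Gene sums were rounded and filtered with filterByExpr (minimum count 10, minimum total 15), which left 13780 genes. One fit over 4 groups used edgeR 4.0.16 in R 4.3.3 (TMM, glmQLFit, glmQLFTest, two-sided) with Benjamini-Hochberg adjustment over all genes and calls at an adjusted p under 0.05. Standard errors are the absolute log2 fold change over the square root of F, and intervals are at 95%. Shares were tested by exact permutation, two-sided. Python 3.11.15, numpy 2.4.6, pandas 2.3.3, scipy 1.17.1 and matplotlib 3.10.9 were used, and the fit was tested on simulated counts. Depth was 14531762 to 63109504 estimated counts per library.

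The 10 genes and the 6 lists were chosen with earlier results of these data known. The lists were receptor chains, other kinases, other adaptors, effectors, brakes and pre-TCR response genes, from which the called genes with the largest change between the stages in WT were named, up to 4 per list. Of the 64 genes on them, 3 (Trgc1, Trgc2 and Trgc4) were not analysed here. The alternatives were edgeR with no low-count filter, DESeq2 1.42.0, edgeR with DESeq2 size factors, an offset for transcript length, limma-trend (limma 3.58.1) on log2(TPM + 1) (12548 genes that reached a TPM of 1 in 2 or more libraries), limma voom with quality weights, the replicate number as a block, a fit to the 2 groups compared, the fit without the libraries that stood apart and each library left out in turn. After seeing the data, the replicate number within genotype as a block and Lck shares by counts were added. Marker lists of other cells and of the stages were summed in CPM as a description. The deviations of same-numbered libraries from their group means over 8201 genes correlated between DN2 WT and DN3 WT (r = 0.729, 0.300 and 0.579). The blocks take the numbers to pair these samples, an assumption from the data and not from the labels. Same-numbered libraries of different genotype, which cannot come from the same mouse, had r from -0.325 to 0.571. Libraries of different number were not compared, so that these values do not settle whether the numbers pair the samples.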

Additional observations from a re-analysis of the deposited data

How the results depend on the processing

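In WT the calls of Ptcra, Cd3d, Cd3e and Zap70 between the stages held under all 16 alternatives run, whereas in Arpp21-/- no call held under the fit to its 2 groups alone. Of the 10 genes, 5 were called between the stages in each genotype. In WT 8 were called without the libraries that stood apart, 8 in a fit to DN2 WT and DN3 WT alone, 8 with limma-trend on log2(TPM + 1) and 8 with limma voom and sample quality weights. In Arpp21-/- the fit to its 2 groups alone called 0, limma-trend 8 and limma voom 2, and the replicate number within genotype as a block called 3. The fit without the libraries that stood apart left DN2 Arpp21-/- replicate 1 alone for its group, and its count is not given. Leaving out each library in turn gave 4 to 5 in WT, 4 to 6 in Arpp21-/-, 0 to 0 between the genotypes at DN3, 0 to 7 at DN2 and 0 to 4 in the interaction. DN2 Arpp21-/- replicate 1 gave the 7 and the 4. Limma-trend on TPM moved the median of all genes by -0.45 (genotypes at DN2), -0.21 (genotypes at DN3), 0.43 (stages in Arpp21-/-), 0.13 (stages in WT) and 0.28 (interaction), against -0.057, -0.0048, 0.028, 0.010 and 0.012 in edgeR, so that its values are read relative to that shift.

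With the replicate number as a block in the fit to all libraries 5 were called in WT and 4 in Arpp21-/-, where Cd3g had an edgeR adjusted p of 0.0832, and 0 in the other comparisons. Of the named genes of the lists, it ended the calls of Egr1 (0.0552) and Id3 (0.0636) in Arpp21-/- and of Spry1 in WT (0.0981, all edgeR adjusted p). Under this block Fyn changed sign, to -0.19 between the stages in Arpp21-/- and to 0.22 between the genotypes at DN2. The deviations of same-numbered libraries had r = 0.495, -0.325 and 0.157 between DN3 WT and DN3 Arpp21-/-. Between DN2 and DN3 Arpp21-/- they had r = 0.759 and -0.792 (2 pairs), where the DN2 deviations from a mean of 2 libraries mirror each other. Libraries of different number were not compared, so that these values do not show whether the numbers pair the samples.

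No value that changed sign belonged to a gene called in that comparison. The values of other sign than reported follow by setting. Without the libraries that stood apart they were Fyn -0.69 between the stages in Arpp21-/-, Cd3d -0.33, Cd3g -0.0504, Fyn -0.25 and Lcp2 0.22 between the genotypes at DN3, Cd3d -0.75, Cd3g -0.47, Cd247 -0.073, Fyn 0.17, Zap70 0.032, Lat -0.023 and Lcp2 0.11 between the genotypes at DN2 and Cd3d 0.42, Cd3g 0.42, Fyn -0.42 and Lat 0.027 in the interaction. With DESeq2 size factors they were Lat -0.054 between the stages in Arpp21-/-. Fitted to the 2 groups compared they were Lat -0.0059 between the stages in Arpp21-/-. With DESeq2 they were Lat -0.047 between the stages in Arpp21-/-. With limma voom and sample quality weights they were Lat -0.0058 between the stages in Arpp21-/- and Cd3d -0.26, Cd3g -0.024, Fyn -0.10 and Lcp2 0.17 between the genotypes at DN3. With limma-trend on log2(TPM + 1) they were Cd3d -0.18, Cd3g -0.11, Lck -0.033 and Lat -0.062 between the genotypes at DN3, Cd3g -0.39, Cd247 -0.42 and Lck -0.12 between the genotypes at DN2 and Cd3g 0.29, Cd247 0.14 and Lck 0.083 in the interaction. With an offset for transcript length they were Lcp2 0.089 between the genotypes at DN3. Leaving out each library gave ranges of Fyn -0.71 to 0.34 and Lcp2 -0.066 to 0.17 between the stages in WT, Fyn -0.22 to 2.72, Lat -0.61 to 1.08 and Lcp2 -0.14 to 2.75 between the stages in Arpp21-/-, Cd3d -0.33 to 0.41, Cd3g -0.047 to 0.24, Cd247 -0.13 to 0.055, Fyn -0.24 to 0.67 and Lcp2 -0.25 to 0.23 between the genotypes at DN3, Cd3d -0.75 to 2.05, Cd3g -0.48 to 0.90, Cd247 -0.073 to 0.63, Fyn -2.77 to 0.18, Zap70 -1.01 to 0.028, Lat -0.022 to 1.68 and Lcp2 -2.76 to 0.11 between the genotypes at DN2 and Cd3d -1.85 to 0.95, Cd3g -0.76 to 0.61, Cd247 -0.67 to 0.027, Lck -0.77 to 0.058, Lat -1.51 to 0.19 and Lcp2 -0.15 to 2.73 in the interaction. The cause of these changes was not tested.

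The lowest group mean of a called gene of the 10 was 1.83 CPM (Ptcra, DN2 WT) against a floor of at most 0.242 CPM, whereas Egr1 of the lists had a mean of 0.599 CPM in DN2 WT and 0.107 CPM in DN2 Arpp21-/-. With 2 or 3 libraries per group the exact tests of shares could not pass 0.05.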
